A study of Mus musculus with 3 samples.

Results

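Activated neutrophils of the transplanted mouse lung 2 hours after reperfusion were described here as the neutrophils of 1 scRNA-Seq library in which UMIs (unique molecular identifiers, each standing for 1 captured RNA molecule) of 5 inflammatory genes outnumbered those of 6 granule genes. In all, 2907 cells met this definition, of 10328 cells in the 2-hour library and 22265 cells in the 3 libraries of the series. Left lungs of C57BL/6J mice with the CD45.2 allele were kept cold at 4 °C for 60 minutes, then at 28 °C for 45 minutes, transplanted into congenic B6 recipients with the CD45.1 allele, and reperfused for 2 hours or 3 days. Naive left lungs of C57BL/6J mice were the third group. The sample descriptions give C57BL/6J as the strain throughout, while the study's methods list B6 CD45.1 mice as B6.SJL-Ptprca Pepcb/BoyJ. Mice were 8 to 10 weeks old by the study's methods, the cells of 2 mice were pooled in each library, and CD45.1-positive cells were sorted, which are the recipient's in the transplants. The sample descriptions state this sort for the naive library as well, although naive mice hold no recipient cells. Every group was therefore 1 library, so no test between conditions was possible, and the intervals given below cover counting error only. The descriptions list a 5′ and a 3′ kit without saying which library used which, whereas the study's methods name a 3′ kit alone, so time, library and kit cannot be told apart in any comparison between libraries.

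Neutrophils are short-lived phagocytes that leave the bone marrow with their granule proteins already made and with most granule genes shut down. On sensing injury or cytokines, tissue neutrophils transcribe chemokines that bring in more neutrophils, cytokines of the interleukin-1 family, and the inhibitors that end the response. In lung ischemia/reperfusion injury, neutrophils are the main early leukocytes to enter the graft and release oxidants and proteases there.

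The 2907 cells were chosen by their counts. A cell was kept with more than 200 genes and less than 10% mitochondrial UMIs, which 10283 cells of the 2-hour library passed. It was called a neutrophil if at least 2% of its UMIs came from S100a8, S100a9, Il1b, Csf3r, Cxcr2 and Retnlg and it held no UMI of Cd79a, Cd3e or Ncr1, which gave 4263 cells. A neutrophil was called activated if the summed UMIs of Cxcl2, Cxcl3, Ptgs2, Il1rn and Nlrp3 exceeded those of Ngp, Camp, Ltf, Mmp8, Cd177 and Retnlg. The reverse held in 1245 cells, called granule-gene neutrophils here, and the sums were equal in 111 cells, of which 5 had neither. Activated cells had a median of 772 UMIs and 366 genes and granule-gene cells 755 UMIs and 373 genes, so both states were of similar depth. That depth was low: neutrophils held a median of 4461 UMIs at 3 days and 5664 in the naive library.

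The definition is a range and not a cell type. The sum of the 5 activation genes had a median of 25 UMIs in activated cells (10th to 90th percentile, 8 to 62) and 6 UMIs in granule-gene cells (1 to 19). The median sum of the 6 granule genes was 4 UMIs (0 to 17) in activated cells and 18 UMIs (6 to 46) in granule-gene cells. Granule genes were at 0 in 475 activated cells (16.3%), while the other 2432 held both kinds of transcript. The surplus of activation UMIs was 10 or more in 70.5% of activated cells. Just inside the limit, 120 cells had 1 UMI more of the activation genes, and just outside it 96 cells had 1 UMI more of the granule genes. Over the 220 cells that were 1 or 2 UMIs inside and the 177 cells that were 1 or 2 UMIs outside, Cxcl2 stood at 8009 and 7529 CPM (UMIs per 1000000 UMIs of the summed cells) and Retnlg at 7977 and 10649.9, levels that the choice of these cells holds close. Among genes that the rule did not use, Ccl3 stood at 147 and 185 and Nfkbia at 1182 and 1341, with overlapping intervals. Egr1 stood at 1431 (95% interval 1249 to 1631) and 971 (809 to 1156). Marcksl1 stood at 1105 (946 to 1282) and 755 (613 to 920.4), and Ccrl2 at 881 (740.5 to 1041) and 563 (441 to 707). Of the 20 genes highest against granule-gene cells, described below, only Egr1, Marcksl1 and Ccrl2 had separate intervals, each higher inside the limit. Lower inside it, with overlapping intervals, were Ccl3, Nfkbia, Il1a, Bcl2a1b, Bcl2a1d, Chka, Gpr84, Mapk6 and, by a small margin, Gm17056. The other genes of the 20 were higher inside it, also with overlapping intervals. All 20 were named for their difference between the states, so these values are a description only.

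**Figure D1:**
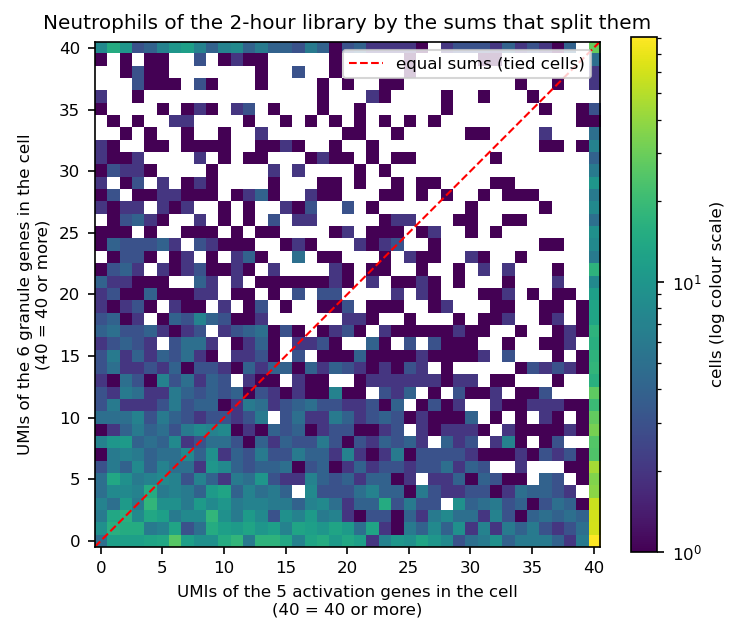
Each square gives the number of 2-hour neutrophils (colour, log scale) with a given number of UMIs of the 5 activation genes (horizontal axis) and of the 6 granule genes (vertical axis), with 40 standing for 40 or more. Cells below the dashed line of equal sums are activated, cells above it granule-gene cells, and no gap separates them. The corner square holds 29 cells with 40 or more UMIs of both, whichever sum is larger.

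The neutrophil label was checked against markers that the definition did not use. Of activated cells, 96.8% held at least 2 UMIs of G0s2, Hdc, Mmp9, Trem1, Clec4d and Ly6g in sum, against 95.5% of granule-gene cells. Hdc, which makes histamine, stood at 4341 CPM in activated and 202 in reference T cells, chosen by at least 2 UMIs of Cd3d, Cd3e and Cd3g without Cd79a or Cd79b. Among the other cell types, C1qa, C1qb, C1qc, Mrc1 and Marco of macrophages had no UMI in the activated cells, and neither had Cd4 nor Kdr. The 10 monocyte markers summed to 727 CPM in activated and 603 in granule-gene cells, of which 434 in activated cells were Nr4a1, an immediate-early gene. The 9 dendritic cell markers summed to 446 and 429 with Cd74 the most abundant at 282, the 9 macrophage markers to 147 and 127 with Apoe at 95.2, the B cell markers to 88.9 and 114 with Ighm at 68.5, and the T cell markers to 48.0 and 84.1 with Trbc2 at 15.6. Markers of NK cells summed to 53.6 and 36.1 with Gzma at 32.7, of platelets to 11.2 and 0.924, of red cells to 2.23 and 3.70, of endothelium to 26.0 and 25.9, of basophils and mast cells to 6.70 and 0, and of proliferating cells to 8.56 and 5.55. Scrublet called 2.03% of activated and 2.89% of granule-gene cells doublets. Barcodes of 8 cells of the naive and 23 of the 3-day library also occurred in the 2-hour library, and 6 activated cells had a barcode found at 3 days.

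The genes that chose the cells differ by construction, so their levels are given as a description. Cxcl2, a ligand of the neutrophil receptor CXCR2, stood at 24939.8 CPM in activated cells (95% interval 24751.3 to 25129.3) and 6799.6 in granule-gene cells, 4394 in 3-day neutrophils and 2158 in naive neutrophils. Its neighbour Cxcl3, another CXCR2 ligand, stood at 2964, 635, 143 and 57.1. Il1rn, the secreted antagonist of the interleukin-1 receptor, stood at 2947, 866, 708 and 691, and Nlrp3, the inflammasome sensor, at 1731, 594, 681 and 727. Ptgs2, which makes prostaglandin H2, stood at 930, 344, 735 and 609. The 3-day and naive cells in these values were not selected on the 5 genes, so nothing is read from the differences. Of the granule genes, Retnlg stood at 6085 in activated and 22361.5 in granule-gene cells, Mmp8, the neutrophil collagenase, at 1004 and 2775, and Ngp at 70.7 and 1060.

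Free RNA in droplets can place such UMIs in any cell, so T cells, which should lack these transcripts, are given beside them. With every cell thinned to 500 UMIs, Cxcl2 was found in 97.6% of activated cells, 74.3% of granule-gene cells and 7.96% of T cells, where activated cells had a median of 772 UMIs and T cells 1259.5 before thinning. Cxcl3 was found in 44.6%, 16.7% and 2.16%, Il1rn in 61.2%, 30.6% and 2.60%, Nlrp3 in 47.0%, 22.3% and 1.26%, and Ptgs2 in 31.0%, 13.3% and 0.744%. The choice of cells fixes high shares of these genes in the activated cells, so the difference from T cells is a description. At that depth 4.66% of activated cells showed all 5 genes and 34.5% showed 3 of them, while 10.6% showed 1. Most activated cells were therefore called on a subset of the genes, chiefly Cxcl2.

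Cxcl2, Cxcl1 and Cxcl3 lie on chromosome 5 (GRCm38) at 90903871 to 90905938, 90891241 to 90893115 and 90786103 to 90789600, all on the plus strand. The 130 bases before their RefSeq starts (GRCm38.p6) are shown with those of Nfkbia, Tnfaip3 and Ier3, feedback genes described below, because each has a promoter with the same motif and all were higher in the activated cells, for Cxcl2 and Cxcl3 by the choice of cells. Tnfaip3 has another RefSeq promoter, at chr10:19011964-19012093, without a match, and the one with matches is shown. Capitals mark matches to the NF-kB consensus motif on either strand.
Cxcl2, chr5:90903769-90903898, plus strand: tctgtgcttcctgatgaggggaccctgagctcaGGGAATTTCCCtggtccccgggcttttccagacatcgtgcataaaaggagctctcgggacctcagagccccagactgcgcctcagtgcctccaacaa
Cxcl3, chr5:90785971-90786100, plus strand: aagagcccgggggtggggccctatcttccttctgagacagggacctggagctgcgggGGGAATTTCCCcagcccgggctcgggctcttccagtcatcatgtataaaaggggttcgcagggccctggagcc
Cxcl1, chr5:90891115-90891244, plus strand: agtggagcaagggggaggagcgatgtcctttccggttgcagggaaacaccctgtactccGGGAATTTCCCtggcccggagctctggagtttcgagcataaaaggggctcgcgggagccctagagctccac
Nfkbia, chr12:55492648-55492777, minus strand: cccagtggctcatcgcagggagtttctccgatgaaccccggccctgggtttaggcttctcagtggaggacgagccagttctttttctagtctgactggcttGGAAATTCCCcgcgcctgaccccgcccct
Tnfaip3, chr10:19015411-19015540, minus strand: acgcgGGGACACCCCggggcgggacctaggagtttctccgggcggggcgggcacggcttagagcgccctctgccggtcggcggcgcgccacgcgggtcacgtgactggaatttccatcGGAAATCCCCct
Ier3, chr17:35821583-35821712, plus strand: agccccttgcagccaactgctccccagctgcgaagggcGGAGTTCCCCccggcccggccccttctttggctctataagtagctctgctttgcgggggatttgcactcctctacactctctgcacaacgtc
The 3 chemokine promoters carried the identical match GGGAATTTCC, which begins 97 bases before the start of Cxcl2, 73 before that of Cxcl3 and 71 before that of Cxcl1. Its overlapping match on the opposite strand extends the capitals by 1 base. Cxcl1, the third CXCR2 ligand of the cluster, stood at 22.7 CPM in activated and 4.62 CPM in granule-gene cells. Its level was low, with a UMI in 30 of 2907 activated and 4 of 1245 granule-gene cells. The motif was found in the 250 bases before the start in 3.90% of 32851 RefSeq promoters and in at least 1 promoter of 4.46% of genes. It was found for 3 of the 5 activation genes (Cxcl2, Cxcl3 and Nlrp3), none of the 6 granule genes, and 9 of the 52 genes with a promoter sequence that were at least 2-fold higher in activated cells, as described next (17.3%, against 6.05% of all 3735 compared genes). Ccl3, Il1a and Icam1, also higher in activated cells, had no match. Of the genes at least 2-fold lower in activated cells, 2 of 31 with a promoter sequence had one (6.45%). A match describes the letters only.

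Activated and granule-gene cells shared 1 library, lungs and sort. They were compared over 4668 genes with at least 50 UMIs in both states together, leaving out the 11 genes that split them. With 10 CPM added to both levels, 62 genes were at least 2-fold higher in activated cells (1.33% of those compared) and 39 were at least 2-fold lower (0.835%). The median log2 ratio over all compared genes was -0.09. Because the cells had been sorted into states by related genes of the same counts, these values describe the states and are no test of them.

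The chemokine gene Ccl3 and the cytokine gene Il1a headed the higher genes, and Ccl4 and Tnf were also among the 20 highest. Ccl3, a chemokine for monocytes and neutrophils, stood at 564 CPM in activated and 97.1 in granule-gene cells, a log2 ratio of 2.54 (95% interval 2.25 to 2.84). Ccl4, its neighbour in the genome and a related chemokine, stood at 1597 and 505 (1.66, interval 1.53 to 1.79). Il1a, the membrane-held interleukin-1, stood at 77.4 and 8.32 (3.22, interval 2.26 to 4.37), resting on 208 and 9 UMIs. Tnf stood at 94.5 and 27.7, and Csf1, the macrophage growth factor, at 444 and 187. Of the chemokine ligand list, 3 of 6 compared genes were at least 2-fold higher (Cxcl1, Ccl3 and Ccl4) and none lower. Of the cytokines and growth factors, 4 of 10 were higher (Il1a, Tnf, Csf1 and Tgfb1), none was lower, and the median log2 ratio was 0.59. Il1b, although in the neutrophil rule, was shared by both states at 12651 and 7058.

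Of the receptor genes, Ccrl2, a non-signalling receptor that binds chemerin, stood at 1296 and 465 and was the only one of 10 chemoattractant receptor genes that was 2-fold apart. Cxcr2, the receptor for Cxcl2 and part of the neutrophil rule, stood at 1225 and 1569, and Cxcr4, the bone marrow homing receptor, at 1940 and 1480.1. None of 18 cytokine receptor genes was 2-fold apart, and of 18 pattern recognition genes only Nod1 was, at 30.5 and 9.24. Clec4n, which encodes the fungal receptor dectin-2, was outside that list and stood at 241 and 46.2. Gpr84, a receptor for medium-chain fatty acids, stood at 60.3 and 13.9.

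Of 20 compared genes of NF-kB and its feedback, 5 were at least 2-fold higher (Nfkbia, Tnfaip3, Traf1, Zc3h12a and Icam1), none was lower, 18 had a ratio above 0 (40.3% of all compared genes did), and the median log2 ratio was 0.79. Nfkbia, the inhibitor that holds NF-kB in the cytoplasm, stood at 2475 and 901. Tnfaip3, a ubiquitin-editing inhibitor of the same pathway, stood at 554 and 209, and Zc3h12a, an RNase that degrades cytokine transcripts, at 511 and 198. Icam1, the ligand of leukocyte integrins, stood at 161 and 35.1. The sum of the list was 10134 CPM against 5203 CPM (log2 ratio 0.96).

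Immediate-early factors, which are transcribed within minutes of a stimulus, had 22 of 26 compared genes with a ratio above 0, against 40.3% of all genes, and a median log2 ratio of 0.40. Egr1, Egr2, Egr3, Ier3 and Maff were at least 2-fold higher, with Egr1 at 1901 and 654 and Ier3, a regulator of cell survival, at 2632 and 1024. Fos stood at 1688 and 2068 and Fosb at 116 and 118. In all, 5 of the 26 genes were higher by 2-fold and none was lower. Of the phosphatase and mRNA decay feedback genes, Dusp2, Ppp1r15a and Gadd45b of 17 were higher, with Gadd45b at 790 and 306. Zfp36, which destabilises cytokine mRNA, stood at 2189 and 1396, and Dusp1, a phosphatase of MAP kinases, at 4047 and 2639.

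The anti-apoptotic Bcl2a1 copies were higher in activated cells: Bcl2a1b stood at 468 and 99.8, Bcl2a1a at 183 and 55.5, and Bcl2a1d at 146 and 35.1. These copies are nearly identical and can share reads, so their values are uncertain one by one. Pim1, a kinase induced by cytokines, stood at 8642 and 5310. Sod2, the mitochondrial superoxide dismutase, stood at 426 and 180 and was the only 2-fold higher gene of 18 in the antioxidant and iron list, and Fth1, the ferritin heavy chain, stood at 45507 and 30869.5. Other genes among the 20 highest were Marcksl1 (2124 and 618), a protein kinase C substrate, Chka (120 and 25.9), a choline kinase, Mapk6 (75.2 and 21.3), Ctsz (157 and 52.7), a cathepsin, Ggct (74.4 and 15.7), and Gm17056 (75.2 and 18.5).

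**Figure D2:**
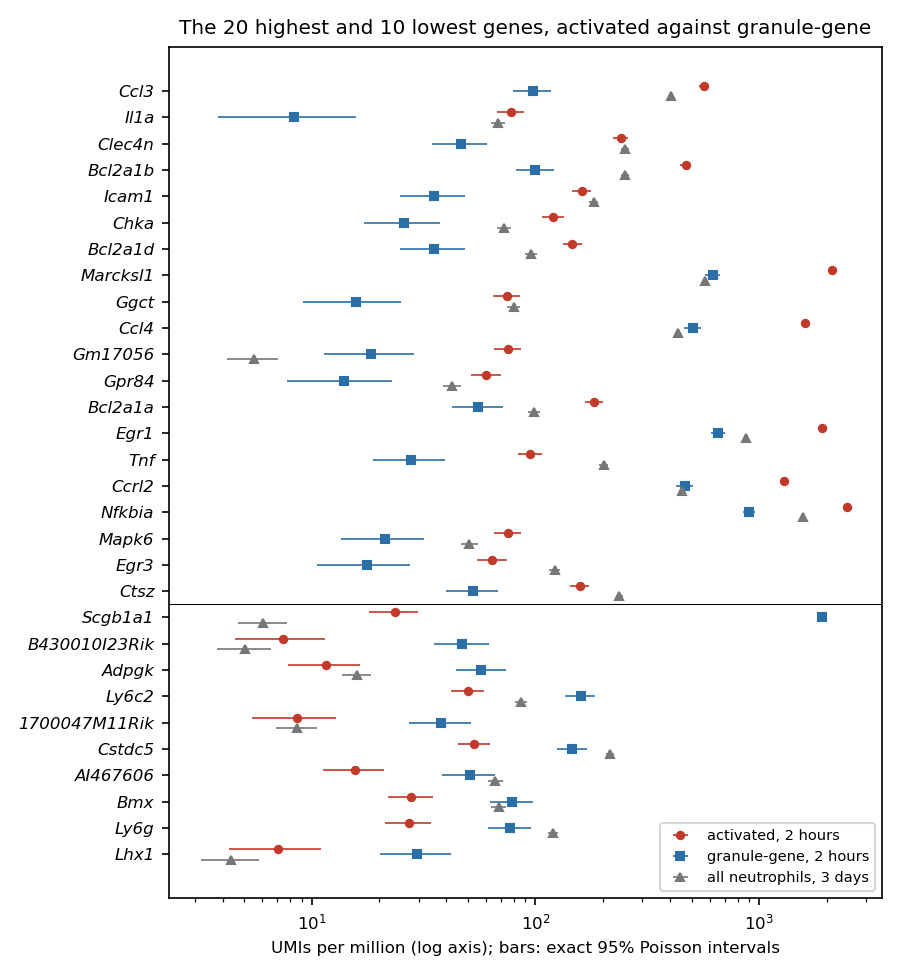
Levels in CPM (log axis, exact 95% Poisson intervals) of the 20 highest and 10 lowest genes by ratio, in activated (circles) and granule-gene (squares) neutrophils at 2 hours and in all 3-day neutrophils (triangles). Activated cells exceed granule-gene cells for the upper 20 genes and lie below them for the lower 10, while 3-day levels such as those of Tnf (202) and Ctsz (237) can exceed both.

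Of the 39 lower genes, 2 were in the granule list and 1 of these also in the alarmin list. All 14 compared genes of the specific and gelatinase granule list had a ratio below 0, leaving out those that chose the cells, with 2 of them at least 2-fold lower (Anxa1 and Wfdc21) and a median log2 ratio of -0.55. Lcn2, an iron-scavenging granule protein, stood at 1175 and 1745, Mmp9, the gelatinase, at 258 and 459, and Lyz2, lysozyme, at 499 and 805. Anxa1, an anti-inflammatory annexin, stood at 142 and 298. Of the alarmins, S100a6 stood at 1811 and 2966, and S100a8 and S100a9, part of the neutrophil rule, at 12165 and 19160 and at 20470 and 31691. Ly6g and Ly6c2, surface antigens of murine myeloid cells, stood at 27.2 and 76.7 and at 49.9 and 159. Azurophil granule genes, which are transcribed in marrow precursors, did not reach 50 UMIs in any of 8 genes found.

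Scgb1a1, the secretory protein of airway club cells, had the lowest ratio, at 23.4 and 1912. Of its 2068 UMIs in granule-gene cells 2032 were in 1 cell, and without called doublets the ratio was near 0. The other genes among the 10 lowest were sparse: B430010I23Rik (7.44 and 47.1), Adpgk (11.5 and 57.3), 1700047M11Rik (8.56 and 37.9), Cstdc5 (53.2 and 146), AI467606 (15.6 and 50.8), Bmx (27.9 and 78.6) and Lhx1 (7.07 and 29.6).

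In the other lists 0 to 3 genes were 2-fold apart, and some list sums differed by less than 2-fold. The sum of the inflammasome and pyroptosis list without Nlrp3 was 540.2 CPM in activated and 368 CPM in granule-gene cells (log2 ratio 0.55, 95% interval 0.39 to 0.72). The hypoxia and glycolysis list summed to 4756 and 5654 CPM (log2 ratio -0.25, interval -0.29 to -0.21), and the NADPH oxidase list to 2729 and 3132 CPM (log2 ratio -0.20, interval -0.26 to -0.14). Of 28 compared type I interferon response genes none was 2-fold apart, with a median log2 ratio of 0.04. Of 26 hypoxia and glycolysis genes, Upp1 alone was (114 and 50.8). No heat shock gene of 11, no inflammasome gene of 8 beside Nlrp3, no NADPH oxidase gene of 7, no coagulation gene of 8 and no gene of 6 for eicosanoid and amine synthesis was. Thrombospondin, Thbs1, stood at 6839 and 6866. Of 18 adhesion genes Icam1 alone was higher, of 10 Fc and complement receptor genes Fcgr2b, and of 18 survival and cell death genes the Bcl2a1 copies. In the list of neutrophil ageing and fate, Icam1 of 20 genes was higher and Stfa1 and Dhrs7 lower.

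**Figure D3:**
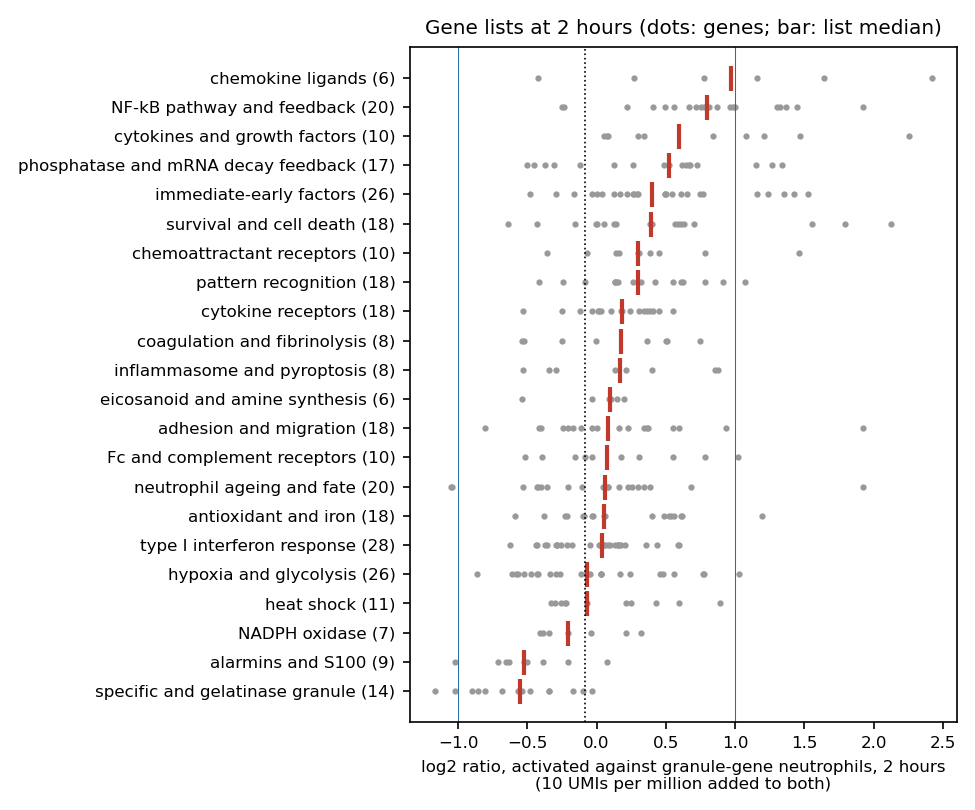
Log2 ratio of activated to granule-gene neutrophils at 2 hours for each compared gene (dots) of the gene lists (compared genes in brackets), with the list median (red bar), the median of all 4668 compared genes (dotted line, -0.09) and the 2-fold limits (thin lines). Chemokine and NF-kB genes lie mostly to the right, granule and alarmin genes to the left.

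The levels also varied within the activated cells. After thinning to 500 UMIs, which left out 223 of the 2907 cells, 242 cells had 1 to 2 UMIs more of the activation than of the granule genes, 379 had 3 to 5 and 1954 had 6 or more, while 109 no longer had a surplus. Ccl4 stood at 579, 1145 and 2006 CPM in the 3 ranges, Ccl3 at 132, 179 and 730, and Nfkbia at 1372, 1678 and 2822. Egr1 stood at 1306, 1604 and 2092 and Ccrl2 at 917, 982 and 1439. In the 109 cells without a surplus Ccl4 stood at 275, Ccl3 at 239, Nfkbia at 1541, Egr1 at 1413 and Ccrl2 at 991, so that Ccl4 alone of these 5 increased at every step. Tnf stood at 147 in those 109 cells and at 66.1, 68.6 and 128 in the other ranges, resting on 8 UMIs in the first. S100a8 stood at 13231, 13135 and 12079 and Cxcr2 at 1405, 1493 and 1180. Of the 20 highest genes against granule-gene cells, 13 rose over the 3 ranges, and of the 10 lowest, 3 fell. The ranges were cut from the UMIs that chose the cells, and the genes were named for their difference between the states, so these values are a description only.

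**Figure D4:**
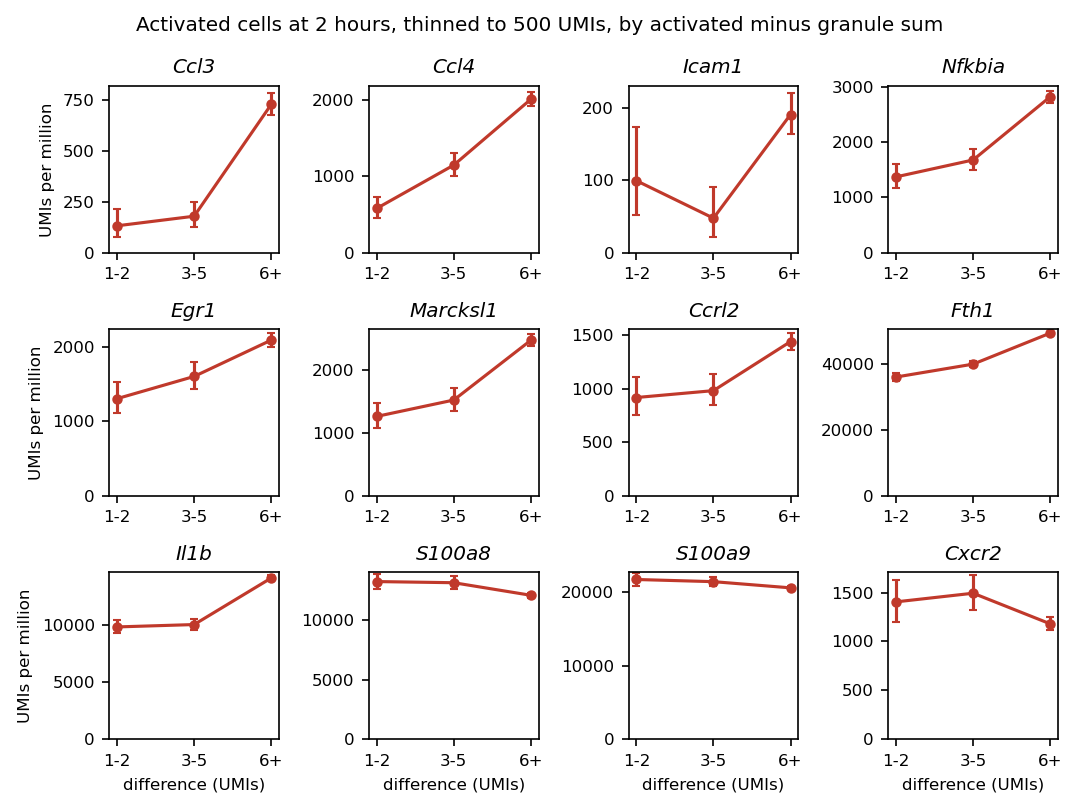
Levels in CPM (exact 95% Poisson intervals) of 12 genes in activated cells thinned to 500 UMIs, by the surplus of activation-gene over granule-gene UMIs (242, 379 and 1954 cells). Ccl3, Ccl4, Nfkbia and Fth1 are highest at a surplus of 6 or more, and S100a8, S100a9 and Cxcr2 are lowest there. The 109 cells without a surplus after thinning are not drawn.

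The same split was made in the other libraries, whose cells had no part in naming the 62 and 39 genes, although earlier results of these libraries were known. At 3 days 1051 of 2189 neutrophils had more activation than granule UMIs, and in the naive library 185 of 346. All 62 genes that were 2-fold higher at 2 hours had a ratio above 0 at 3 days, and 41 of them were at least 2-fold higher there, against 2.38% of all 7338 genes compared at 3 days, of which 72.0% lay above 0. In the naive library 53 of the 62 genes could be compared, 52 lay above 0 and 26 were at least 2-fold higher, against 2.37% of 3838 genes, of which 58.1% lay above 0. Of the 39 lower genes, 37 could be compared at 3 days, 32 lay below 0 and 7 were at least 2-fold lower (background 0.327%). In the naive library 28 of the 39 could be compared, 26 lay below 0 and 8 were 2-fold lower (background 1.46%). Ccl3 stood at 894 in activated and 34.4 in granule-gene cells at 3 days and at 158 and 31.6 in the naive library. Icam1 stood at 373 and 37.1 and at 214 and 53.6. The NF-kB list had 15 of 24 compared genes at least 2-fold higher at 3 days, with a median log2 ratio of 1.11 against 0.17 over all genes. All of the higher genes but 1 of those compared thus lay on the same side in both other libraries.

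The share of neutrophils in the activated state is given for each library as a description, since it is counted from the genes of the definition. With each neutrophil thinned to 500 UMIs it was 67.1% at 2 hours (2652 of 3953 cells, exact binomial 95% interval 65.6 to 68.6), 43.3% at 3 days (947 of 2189, 41.2 to 45.4) and 43.9% in the naive library (152 of 346, 38.6 to 49.3). Without thinning the shares were 68.2%, 48.0% and 53.5%. The value was highest at 2 hours in both settings, but cells are not replicates, and 1 library per time leaves the spread between mice unmeasured. Cells with equal sums made up 3.24% of the thinned neutrophils at 2 hours, 11.4% at 3 days and 19.9% in the naive library. Cxcl2 stood at 836 CPM in 2-hour T cells and 216 CPM in 3-day T cells, and the part of free RNA in the shares was not tested.

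**Figure D5:**
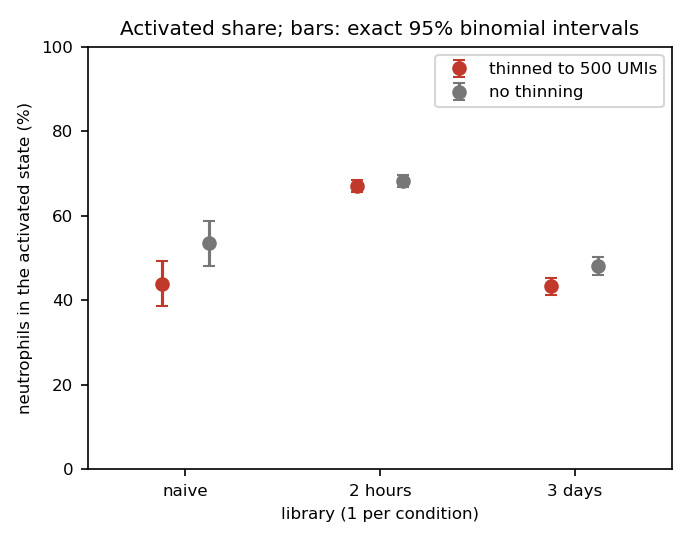
Percent of neutrophils in the activated state in the naive, 2-hour and 3-day libraries (1 library each), with each cell thinned to 500 UMIs (red) and with all UMIs (grey). Bars are exact 95% binomial intervals for counting error. The 2-hour share (67.1% thinned) lies above the naive (43.9%) and 3-day (43.3%) shares.

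Compared with all 3-day neutrophils, activated cells at 2 hours were at least 2-fold higher for 228 of 7774 genes (2.93%) and lower for 513 (6.60%), with a median log2 ratio of -0.21 over all genes. Against the 1051 activated neutrophils at 3 days, 2.94% of 6656 genes were higher and 10.0% lower, with a median of -0.32. Cxcl3 stood at 2964 in activated cells at 2 hours and 271 in activated cells at 3 days, and Cxcl2 at 24939.8 and 8536. The cytokine Tnf went the other way, at 94.5 and 427, as did Icam1 at 161 and 373. Ccl3 stood at 564 and 894, but in cells thinned to 500 UMIs it was found in 18.1% of activated cells at 2 hours and 15.0% at 3 days, so its order depended on the measure. Cxcl1 also went the other way, at 22.7 and 94.4. Cxcl2 and Cxcl3 are among the genes that chose the activated cells in both libraries, and Cxcl1, Tnf, Ccl3 and Icam1 are not.

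Immediate-early genes were higher at 2 hours than in all 3-day neutrophils for 7 of 27 genes (Fos, Junb, Egr1, Ier3, Btg1, Btg2 and Csrnp1) and lower for Nr4a2, with a median log2 ratio of 0.23. Against activated 3-day neutrophils 5 of 26 were higher, without Egr1 and Csrnp1, and Egr3, Nr4a2 and Nr4a3 were lower. In that comparison 11 of the 26 lay above 0 with a median of -0.16, against 25.9% and -0.32 over all genes. In activated cells at 2 hours and in all 3-day neutrophils, Junb stood at 4959 and 1893 and Fos at 1688 and 767. Btg1, an antiproliferative gene, stood in these cells at 10228.5 and 3174. Again with all 3-day neutrophils second, Pim1 stood at 8642 and 1326, Fth1 at 45507 and 11841 and Thbs1 at 6839 and 1551. Plaur, the urokinase receptor, stood there at 1817 and 636. Lower genes against all 3-day neutrophils included 9 of 10 alarmin and S100 genes (S100a8 and S100a9, which chose the neutrophils, among them) and 8 of 14 specific and gelatinase granule genes, and against activated ones 8 of 10, again with both, and 7 of 14. Of 24 NF-kB genes, Bcl3 and Zc3h12a were higher and none lower against all 3-day neutrophils, with a median of 0.17. Against activated ones none was higher, Icam1 and Ikbke were lower and the median was -0.21. Of the 24 genes 5 lay above 0 there, where 25.9% of all genes did. The signs of the NF-kB and immediate-early medians thus turned with the 3-day cells used. The median over all genes was also lower against activated 3-day neutrophils (-0.32) than against all of them (-0.21). Both list medians lay above it in both comparisons. In activated cells at 2 hours and in all 3-day neutrophils, S100a8 stood at 12165 and 53984, S100a6 at 1811 and 6737, and Mmp9 at 258 and 1271. Of 38 type I interferon response genes 4 were lower (Oasl2, Ifitm1, Trim30a and Gbp2) and none higher, where 6.60% of all genes were lower, and Ifitm1 was also at least 2-fold lower in T cells.

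The 10 highest genes against 3-day neutrophils, leaving out mitochondrial and ribosomal protein genes, were Schip1 (295 and 15.5), Mt1 (653 and 58.9), Bc1 (125 and 5.58), Lars2 (6161 and 745), Lig3 (95.6 and 4.75), Crispld2 (268 and 32.2), Pim1, Slc39a1 (183 and 23.1), Rbm47 (474 and 75.9) and Gm17056 (75.2 and 5.49). Mt1 encodes a metal-binding metallothionein and Slc39a1 a zinc importer. Among the 10 lowest were Fn1 (7.07 and 287), Wfdc17 (335 and 4214), Steap4 (19.7 and 317), Saa3 (11.9 and 214), S100a4 (9.67 and 178), Ifitm1 (552 and 3569), Anxa1 (142 and 906), Vim (155 and 953) and Tspo (109 and 629). Saa3 encodes an acute-phase protein and Fn1 fibronectin. The 9 macrophage markers summed to 147 CPM in activated cells at 2 hours and 492 CPM in 3-day neutrophils, and the 10 monocyte markers, Fn1 among them, to 727 and 1372 CPM. Their part in these differences was not tested.

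Much of this difference was also seen in T cells of the same libraries. Of the 228 higher genes, 191 could be compared between 2-hour and 3-day T cells and 84 of them (44.0%) were at least 2-fold higher there, against 3.28% of 9332 genes. Of the 513 lower genes, 488 could be compared and 120 (24.6%) were at least 2-fold lower, against 3.31%. Bc1 stood at 445 in T cells at 2 hours and 18.0 at 3 days, and Saa3 at 0.520 and 84.1. Of the 10 highest genes 8 shared the direction by at least 2-fold in T cells, Lars2 and Rbm47 being the others. Of the 10 lowest genes 8 were likewise at least 2-fold lower in T cells, with Saa3, Fn1 and Vim among them. Thbs1 (286 and 239) and Ier3 (109 and 103) were at similar levels in the T cells of both libraries. The part of kit, depth and free RNA in the difference between 2 hours and 3 days was not tested.

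Antibody counts gave a readout that the definition did not use. Both transplant libraries carried counts of 277 antibody tags, whose names follow human antigens, and the sources used here do not state which clones bind mouse proteins. In 2-hour neutrophils only 18 tags reached 50 UMIs. CD11b and CD18, subunits of a neutrophil integrin, had none in either state and CD62L had 0 in activated and 1 in granule-gene cells, so most tags gave no information on these cells. The tag for CD44, a hyaluronan receptor, gave 107.9 UMIs per activated cell, 108.4 per granule-gene cell and 14.4 per T cell, and that for CD49f (integrin alpha 6) 24.4, 24.96 and 10.2.

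Besides control tags, those for ITGB7 (integrin beta 7), Mac2 (galectin-3, the product of Lgals3) and CD133 had intervals above 0 between the states. CD133, the product of PROM1, rested on 55 and 12 UMIs, with a log2 ratio of 0.96 (0.04 to 2.00). ITGB7 gave 5.06 UMIs per activated and 3.35 per granule-gene cell, with medians of 2 and 1, and its share of antibody UMIs had a log2 ratio of 0.59 (95% interval 0.54 to 0.64). T cells carried 21.5. Mac2 gave 0.753 and 0.446 per cell, with a median of 0 in both states, and its share had a log2 ratio of 0.75 (0.61 to 0.88). At 3 days the activated cells were higher than granule-gene cells for ITGB7 and Mac2, with 5.99 and 4.32 UMIs per cell and 13.6 and 9.45. For CD133 the interval held 0 at 3 days, with a log2 ratio per cell of 0.58 (-0.96 to 2.21). Of 9 control tags, which bind no intended antigen, 7 also had a ratio above 0 at 2 hours and 6 at 3 days. The interval lay above 0 at 2 hours for Rat.IgG2a, at a log2 ratio of 1.35 (0.32 to 2.56) from 54 and 9 UMIs, and below 0 for Rat.IgG1.lambda, at -0.43 (-0.62 to -0.23). At 3 days it lay above 0 for Rat.IgG2a at 0.97 (0.21 to 1.77) and Mouse.IgG2a at 0.76 (0.08 to 1.45), and below 0 for Hamster.IgG. The part of unspecific binding in the ITGB7 and Mac2 differences was not tested. CD45R, a B cell antigen, gave 0.410 and 0.399 per cell against 20.1 per B cell. Of the transcripts, Lgals3 stood at 127 CPM in activated and 227 in granule-gene cells, Itgb7 at 9.67 and 12.02, and Cd44 at 870 and 572.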

How the data were processed

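Single cells were sequenced in 3 libraries of pooled lung cells, described as sorted for CD45.1. Which cells were sorted for the naive library was not settled. The libraries came from 2 mice each. The authors deposited filtered matrices of UMI counts per gene and cell, aligned to mm10, with Cell Ranger 6.0.0 (transplants) or 7.1.0 (naive) in the file headers. The submitters' processing notes name Cell Ranger 6 and Seurat 4. The 2-hour library held 10749100 gene UMIs, the 3-day library 70750470 and the naive library 28538529. Gene names and Ensembl IDs came from the files, coordinates from GENCODE vM21 (GRCm38), promoters from RefSeq (GRCm38.p6). The handling of intronic reads was not stated.

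The cell definitions, gene lists and tests were chosen with earlier results of these data known. Raw counts were summed over the cells of each state and divided by the total of the state (CPM). With 1 library per condition no p-value was computed. Intervals are exact at 95%: Poisson for sums, conditional binomial for ratios and Clopper-Pearson for shares, and they cover counting error only. Ratios with intervals are of plain levels. Calls of 2-fold used 10 CPM added to both levels and at least 50 UMIs over both groups, which understates changes of low genes. Genes were named by rule: all genes of 23 lists, the 20 highest and 10 lowest against granule-gene cells, the 10 highest and 10 lowest against 3-day neutrophils (without mitochondrial and ribosomal protein genes) and the genes of the definition. Of the 10 lowest against 3-day neutrophils, 1 is not reported here. Clec4n, Marcksl1 and others came in by rank, and Lgals3, Itgb7 and Itga6 were added for the antibodies after values were seen. The symbols Azu1, BC100530, Clec7a and Mx1 were not matched. Shares used cells thinned at random to 500 UMIs. Doublets were called by Scrublet in scanpy 1.11.5 and kept in the main results. On simulated sums over 4679 genes for activated against granule-gene cells, 92.0% of intervals held a log2 ratio of 2 and 94.0% a log2 ratio of 1. The 2-fold call found 31.0% of the genes set at a log2 ratio of 1, which is its limit, and 100.0% of those set at 2. Counts of 2-fold genes therefore leave out many genes close to that limit. Python 3 with numpy, scipy and pandas was used. Alternatives were the filter of the methods, other limits for the neutrophil and activated calls, removal of doublets or of cells with markers of other types, other pseudocounts and filters, means over cells, thinning to 1000 UMIs, and other scalings of genes and antibodies.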

Additional observations from a re-analysis of the deposited data

How the results depend on the processing

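No paired analysis was possible because each condition was 1 library. The number of activated neutrophils (2907) lay between 2460 and 3869 under 6 alternatives and was 1489 with neutrophil genes at 5% of UMIs. The activated share at 2 hours was 71.9% at 1000 UMIs and 56.4% with the 5% limit, and that at 3 days 48.0% without thinning and 35.5% with the 5% limit. The naive share was 53.5% without thinning. In all 5 settings the 2-hour share was the highest. Against granule-gene cells, 118 genes were higher and 110 lower with 1 CPM added, and 23 and 4 with 50 added. All 62 genes kept a ratio above 0 under each alternative except leaving out cells with markers of other types, where 58 did. Against 3-day neutrophils, 87 genes were higher and 169 lower with 50 CPM added. Of 318 list and gene values under alternatives, 302 stayed within the main interval, 14 moved without changing sign, and Scgb1a1 reversed to log2 ratios of 0.0233 without called doublets and 0.17 without cells with markers of other types. As centred log ratios, the antibody differences were 0.38 for ITGB7, 0.14 for Mac2, -0.11 for CD49f and -0.0534 for CD44, whose ratio per cell was -0.00726. The causes were not tested. A median of 772 UMIs per cell limits what single cells show, and the spread between mice was not measured.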
